A study of Mus musculus with 12 samples.

Results

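The trefoil factors Tff1, Tff2 and Tff3, the WAP-domain inhibitors Slpi and Wfdc2, the Kazal-domain inhibitor Spink1 and the disulfide isomerase Agr2 are small secreted or secretory-pathway proteins of mucous epithelia. These 7 genes were followed across the tumours and normal livers of a mouse liver cancer study, out of 18193 genes measured. Every probe set that named 1 of them was used, which gave 8 probe sets, with a pair for Agr2 and 1 for each other gene. The set was chosen by the differences of Tff3, Slpi and Spink1 between tumours and normal liver, which ranked 5, 8 and 10 among the rises of all genes. The comparison of tumours with normal liver is therefore given for the 7 genes as a description, with no test.

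The samples formed 2 groups, 6 spontaneous hepatocellular carcinomas (HCC), numbered HCC 1 to HCC 6, and 6 normal livers used as controls, numbered in the same way. All came from untreated 2-year-old B6C3F1 mice, the hybrid of C57BL/6 and C3H strains used in rodent carcinogenicity bioassays, which is prone to liver tumours in old age. RNA of whole tissue was hybridised to single-colour Affymetrix arrays, 1 per sample. The labels do not say which samples came from which mouse, so the spread within a group is that between these samples. Precision is limited by having 6 arrays in each group.

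Trefoil factors carry a compact domain held by disulfide bonds and are secreted with mucins, where they protect epithelia and help them to close wounds. Tff1 and Tff2 are typical of the stomach and Tff3 of intestinal goblet cells, and in liver trefoil factors are known mainly from bile duct epithelium. Slpi, the secretory leukocyte protease inhibitor, blocks elastase and cathepsin G released by neutrophils. Wfdc2, known in human medicine as HE4, shares its WAP domain and is secreted by airway and reproductive tract epithelia. Spink1, called Spink3 in older mouse annotations, is the trypsin inhibitor of pancreatic juice and is also made elsewhere. Agr2 is an endoplasmic reticulum protein needed for mucin folding in goblet cells.

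In the GRCm38.p6 annotation the 3 trefoil genes lie side by side on chromosome 17, Tff3 at 31125306 to 31129611, Tff2 at 31141062 to 31144282 and Tff1 at 31161395 to 31165060. Slpi (164354070 to 164356507) and Wfdc2 (164562715 to 164568510) both lie on chromosome 2, in a region with further WAP genes. The position of Agr2 is on chromosome 12 (35992925 to 36004081).

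The promoters of the chromosome 2 inhibitors are shown because the genes share a protein domain and a locus but differed in tumours, as described below. Each window holds 250 bases before and 50 after the transcription start, written 5′ to 3′ on the gene's own strand from the RefSeq table of GRCm38.p6, and capitals mark CG dinucleotides. The Slpi window is chr2:164356458-164356757 on the minus strand and the Wfdc2 window is chr2:164562465-164562764 on the plus strand.
Slpi: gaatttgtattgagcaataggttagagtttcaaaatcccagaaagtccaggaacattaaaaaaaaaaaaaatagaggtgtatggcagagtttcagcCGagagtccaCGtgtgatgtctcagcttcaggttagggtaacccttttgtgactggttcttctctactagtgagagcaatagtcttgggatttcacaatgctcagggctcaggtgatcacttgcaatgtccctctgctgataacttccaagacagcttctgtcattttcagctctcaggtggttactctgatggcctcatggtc
Wfdc2: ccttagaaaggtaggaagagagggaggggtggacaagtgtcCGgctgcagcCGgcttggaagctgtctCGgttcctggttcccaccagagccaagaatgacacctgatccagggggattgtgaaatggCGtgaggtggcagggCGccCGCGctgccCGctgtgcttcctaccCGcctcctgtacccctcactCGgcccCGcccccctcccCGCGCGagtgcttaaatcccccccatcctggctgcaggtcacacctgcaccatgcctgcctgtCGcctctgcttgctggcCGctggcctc
The Slpi window held 2 CG dinucleotides and 43.3% G and C, and the Wfdc2 window held 16 and 65.3%. Of 27025 promoters in the table, 85.4% had at least as many CG dinucleotides as Slpi and 33.5% at least as many as Wfdc2, with a median of 7. Neither window held the TATA box letters TATAAA, which 14.2% of all promoters held on either strand, or the forkhead letters TGTTTAC, which 3.55% held. The AP-1 letters TGANTCA, present in 7.93%, and the STAT letters TTCNNNGAA, present in 8.47%, were also without a match in either window; both read the same on the opposite strand.

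Levels below are intensities as deposited, on a linear scale, followed by log2(intensity + 16) after quantile normalization, on which the lowest possible level is about 4. In whole tissue, more cells of a type that makes a transcript and more of that transcript per cell cannot be told apart. In 3 of the 7 genes, Tff3, Slpi and Spink1, all 6 HCC lay above all 6 normal livers, which held for 4.25% of all genes. Since these 3 chose the set, nothing is read from that count. In none of the 7 did all 6 HCC lie below all 6 normal livers, as in 4.5% of all genes.

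Tff3, the intestinal trefoil factor, had a lowest intensity of 8266.2, a median of 19087.1 and a highest of 31469.3 in HCC, against 19.3, 232.0 and 1159.8 in normal liver. No normal liver came near the lowest tumour. The log2 level averaged 14.07 ± 0.74 in HCC and 8.05 ± 1.94 in normal liver (mean ± SD, n = 6 each), a difference of 6.02 or 64.9-fold. Tff3 was the member that varied most among normal livers, 60.2-fold in intensity between the highest and the lowest, against 3.81-fold among the tumours. The lowest normal livers were normal 3 at a log2 level of 5.26 and normal 1 at 6.87, and the highest were normal 2 at 10.22 and normal 5 at 10.09. Normal 1 and normal 3 were also the only normal livers without signal from Y-linked genes, as HCC 1 and HCC 4 were among the tumours. Xist, the transcript of the inactive X chromosome, was at 11.97 for normal 1 and 12.70 for normal 3. It was at 11.79 for HCC 1 and 12.03 for HCC 4, and at 5.12 to 7.56 on all other arrays. Both groups thus mixed samples with female and male expression, though the labels give no sex. Differences without Y-linked signal compare HCC 1 and HCC 4 with normal 1 and normal 3. The difference in Tff3 was 5.39 between arrays with Y-linked signal and 7.28 between those without it.

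The other trefoil genes did not follow their neighbour. Tff1 had intensities of 456.0, 592.0 and 926.0 (lowest, median and highest) in HCC, against 639.0, 921.0 and 1134.4 in normal liver. The groups overlapped, with 4 of the 6 HCC below every normal liver. Its log2 level was 9.29 ± 0.43 in HCC and 9.87 ± 0.29 in normal liver (mean ± SD, n = 6 each), a difference of -0.58. Tff2 lay at 4.95, 64.7 and 157.0 in HCC, against 4.89, 29.9 and 87.2 in normal liver, and 2 HCC and 3 normal livers were under an intensity of 16. With log2 levels of 5.94 ± 1.22 in HCC and 5.40 ± 1.0 in normal liver (mean ± SD, n = 6 each), its difference of 0.55 was smaller than the spread within either group.

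Slpi had intensities of 3422.8, 15237.9 and 35557.0 (lowest, median and highest) in HCC, against 186.0, 271.0 and 364.0 in normal liver. Normal livers were close together, within 1.96-fold, whereas the tumours ranged over 10.4-fold and all lay far above them. The log2 level was 13.60 ± 1.40 in HCC and 8.26 ± 0.32 in normal liver (mean ± SD, n = 6 each), a difference of 5.34 or 40.4-fold, with 6.02 between arrays with Y-linked signal and 3.96 between those without it. Wfdc2 was not higher in HCC. Its intensities were 57.8, 410.0 and 723.0 in HCC, against 499.0, 614.0 and 903.0 in normal liver, and its log2 level was 8.15 ± 1.42 in HCC and 9.40 ± 0.32 in normal liver (mean ± SD, n = 6 each), a difference of -1.26. Here 4 HCC lay below every normal liver and 2 among them. The difference rested largely on a pair of tumours, HCC 1 and HCC 4, and was -0.45 between arrays with Y-linked signal and -2.86 between those without it, where both of these tumours fall.

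Spink1 lies on chromosome 18 (43728069 to 43737237, GRCm38.p6). It had intensities of 140.0, 750.0 and 9036.4 (lowest, median and highest) in HCC, against 6.46, 12.9 and 37.6 in normal liver. Every tumour lay above every normal liver, 4 of which were under an intensity of 16. On the log2 scale Spink1 was at 10.11 ± 2.40 in HCC and 5.05 ± 0.56 in normal liver (mean ± SD, n = 6 each), a difference of 5.06 or 33.4-fold. It was 6.05 between arrays with Y-linked signal and 3.09 between those without it. With normal livers this close to the floor, the size of the difference depends on the added constant, at 6.02 with 1 and 3.88 with 64. In the order of all genes Spink1 stood between carboxypeptidase E (Cpe), at 5.20, and Igfbp1, at 4.93. Its SD among tumours was above that of 99.9% of all genes, and those of Wfdc2 and Slpi were above 98.3% and 98.1%.

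Agr2 was at low intensities on both of its probe sets. The brighter one had 3.75, 30.5 and 43.6 (lowest, median and highest) in HCC, against 7.48, 22.6 and 73.4 in normal liver, and log2 levels of 5.20 ± 0.68 in HCC and 5.42 ± 0.70 in normal liver (mean ± SD, n = 6 each). The other stayed under 16 in 6 HCC and 4 normal livers. Differences of -0.22 and -0.06 were smaller than the spread within groups.

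**Figure D1:**
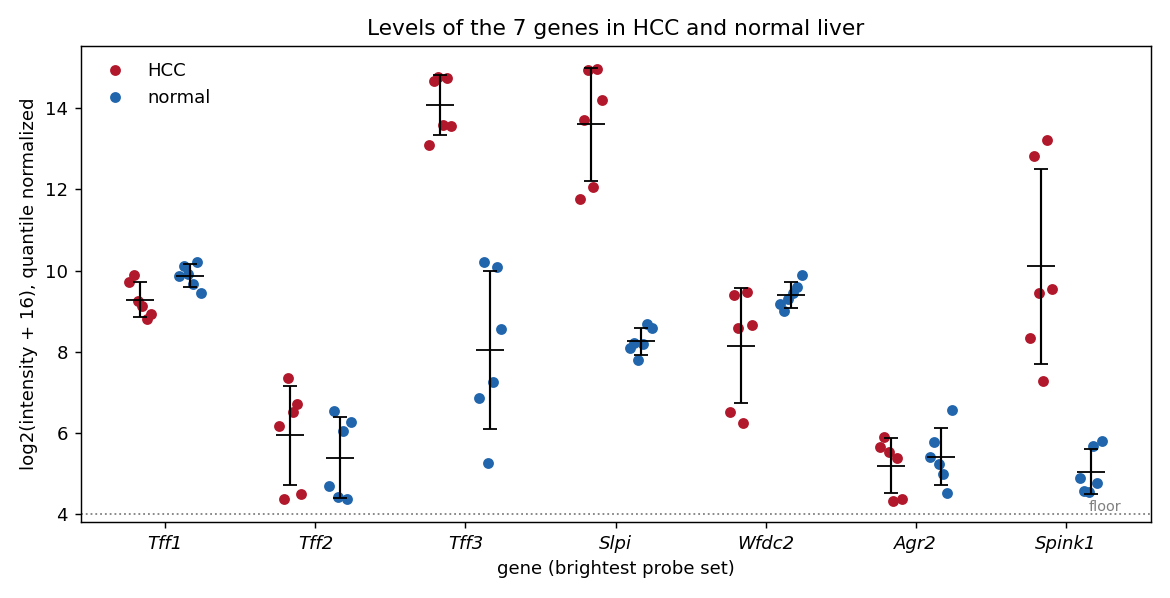
Log2 level, as log2(intensity + 16) after quantile normalization (vertical axis), of each gene's brightest probe set in 6 HCC (red) and 6 normal livers (blue); points are arrays, bars the mean and SD, and the dotted line the floor of 4. The HCC and normal points are fully apart for Tff3, Slpi and Spink1 and overlap for Tff1, Tff2, Wfdc2 and Agr2.

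The tumours were not uniform, and the 3 genes with the largest differences did not share a single order. Relative to the mean of normal livers, the log2 level of Tff3 was 5.05 for HCC 1, 5.55 for HCC 4 and 5.51 for HCC 6, and HCC 2, HCC 3 and HCC 5 were at 6.62, 6.71 and 6.68. The first 3 tumours thus formed a lower set, separated from the others by a gap of 1.08. Slpi stood at 3.50 for HCC 1 and 3.79 for HCC 4, then, after a gap of 1.65, at 5.44 for HCC 2, 5.93 for HCC 6, 6.68 for HCC 3 and 6.69 for HCC 5. Spink1 stood at 2.23 for HCC 4, 3.30 for HCC 1, 4.39 for HCC 3, 4.51 for HCC 6, 7.76 for HCC 2 and 8.18 for HCC 5. Only HCC 2 and HCC 5 reached the highest levels there, 3.26 above the next tumour.

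Wfdc2, which as a group was not raised, ordered the 6 tumours exactly as Spink1 did, from HCC 4 through HCC 1, HCC 3, HCC 6 and HCC 2 to HCC 5. HCC 3 and HCC 6 nearly tied in both genes, as did HCC 2 and HCC 5 in Wfdc2. The pair is 1 of 21 among the members, and the match was not tested. Relative to normal liver Wfdc2 stood at -3.16 for HCC 4, -2.88 for HCC 1, -0.82 for HCC 3, -0.75 for HCC 6, 0.00 for HCC 2 and 0.07 for HCC 5. HCC 1 and HCC 4 thus held the lowest levels of Wfdc2, Slpi and Spink1, while for Tff3 they were among the lowest 3. In 6 of the 7 genes the tumours fell into separate clusters, with a gap of more than 50% of the range and at least 2 tumours on each side. Because of these clusters no correlation between members was computed over the tumours. The share of all genes that meet this rule was not counted, so nothing is read from the number. Slpi met it narrowly, at 51.7%. The lower cluster lay near the floor for Tff2 (4.95 and 5.68 in HCC 2 and HCC 6) and Agr2 (3.76 and 3.75 in HCC 4 and HCC 6).

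Glutamine synthetase (Glul) and Axin2, which are targets of beta-catenin signalling, are given beside these values because the same tumours stood out. The log2 level of Glul was 15.17 for HCC 1, 15.10 for HCC 4 and 14.62 for HCC 6, whereas HCC 2, HCC 3 and HCC 5 had 11.75, 11.40 and 12.03. Axin2 was at 11.76, 10.34 and 9.14 for the first of these sets, whereas the second had 6.24, 5.06 and 6.36. Normal livers lay between these sets for both genes, at 13.29 to 14.33 for Glul and 7.65 to 8.76 for Axin2. The 3 tumours high in Glul were the 3 lowest in Tff3. For Slpi this was not so, since HCC 6, at 14.19, lay above HCC 2, at 13.70. HCC 1 and HCC 4 carried the highest Glul and were also the tumours without Y-linked signal. HCC 6, the third tumour high in Glul, had Y-linked signal.

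**Figure D2:**
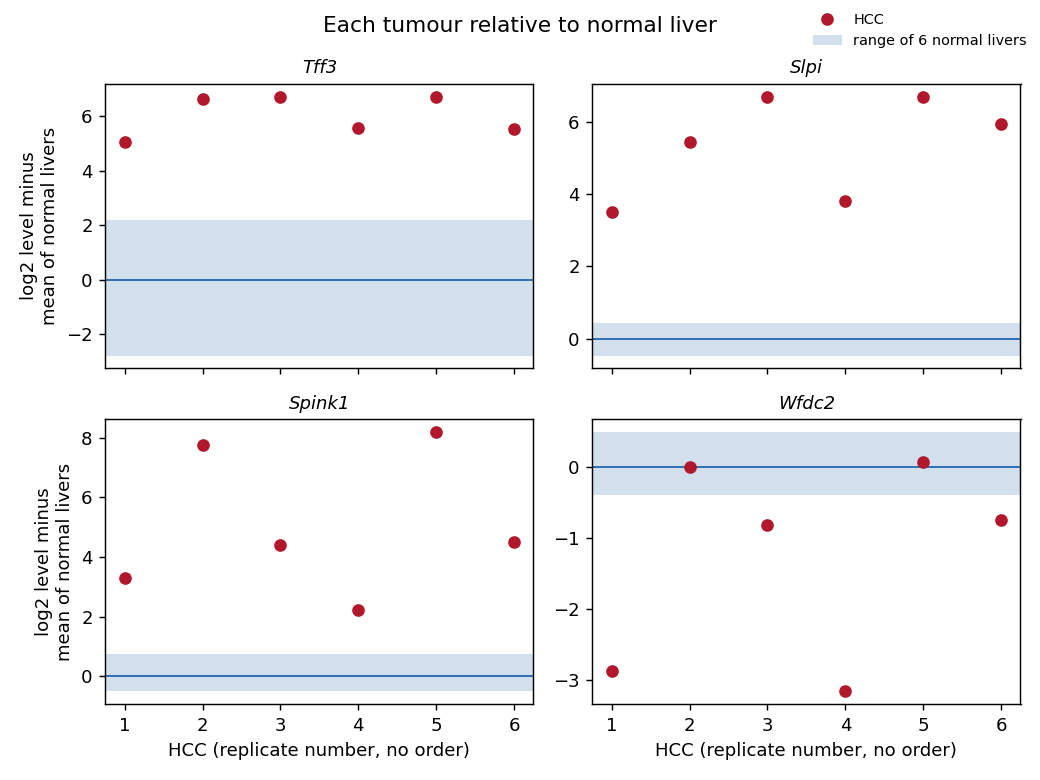
Log2 level of each HCC minus the mean of the 6 normal livers (vertical axis) for Tff3, Slpi, Spink1 and Wfdc2, by tumour number (horizontal axis); the band is the range of the normal livers. HCC 1 and HCC 4 are lowest for Slpi, Spink1 and Wfdc2, and HCC 2 and HCC 5 highest for Spink1 and Wfdc2.

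Genes with the most similar pattern over the 6 tumours were taken from the 461 others with an SD of at least 1 among tumours and a mean above the median gene (460 for Slpi). For Tff3 they were Pkhd1, which encodes fibrocystin of primary cilia (Pearson r = 0.990), and the histidine-degrading enzymes Amdhd1 (0.987) and Ftcd (0.986). For Slpi they were the gluconeogenic enzyme Pck1 (0.990), the cationic amino acid transporter Slc7a2 (0.983) and cathepsin C, Ctsc (0.980). For Spink1 they were Elapor1 (0.985), complement C9 (0.981) and Olfm3 (0.977). These values describe 6 tumours that fall into clusters, and 25, 23 and 10 genes exceeded 0.9 for Tff3, Slpi and Spink1. None of the 6 genes named for Tff3 and Slpi passed between the groups (limma, adjusted p from 0.108 to 0.949). Pck1, for instance, lay between 9.63 and 14.19 in HCC, against 13.80 ± 0.35 in normal liver (SD, n = 6). Elapor1 rose, with a log2 difference of 2.35 ± 0.51 (SE, adjusted p = 0.0097). C9 at -2.0 (adjusted p = 0.0843) and Olfm3 at -2.66 (adjusted p = 0.0648) lay the other way without passing.

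The measured genes beside the members were tested between the groups. Around the trefoil cluster, the nearest 10 measured genes, 5 on each side and up to 520.5 kb away, included 0 that rose and 1 that fell in limma at an adjusted p under 0.05, where 6.48% of all genes rose and 7.24% fell. The gene that fell was the phosphodiesterase Pde9a, at -0.84 ± 0.24 (SE, adjusted p = 0.0375), a call that held with HCC 1, HCC 2, HCC 5 or normal 1 left out but with no other array left out (adjusted p up to 0.0786), and was lost under median centring and the deposited scaling. Abcg1 and Tmprss3, which flank the cluster, were at 0.23 (adjusted p = 0.531) and 0.32 (adjusted p = 0.608). Of 10 genes beside Slpi, only the matrix protein matrilin 4 (Matn4) rose, by 1.01 ± 0.27 (SE, adjusted p = 0.0283). That call was lost without HCC 6, normal 1, normal 2, normal 3 or normal 5 (adjusted p up to 0.0611). The seminal vesicle protein genes Svs5 and Svs6 on its other side were at -1.03 and 0.21 without passing (adjusted p = 0.081 and 0.588). Of 10 genes beside Wfdc2, 3 of which also neighbour Slpi, 3 rose. They were Wfdc3 by 1.03 ± 0.29 (SE, adjusted p = 0.0329), Dbndd2 by 0.92 ± 0.13 (SE, adjusted p = 0.00103) and Dnttip1 by 0.92 ± 0.20 (SE, adjusted p = 0.0116). The Wfdc3 call held when HCC 2, HCC 4, normal 1 or normal 4 was left out but with no other array left out (adjusted p up to 0.0708). When all probe sets of a gene were averaged instead of taking its brightest, neither Dbndd2 (adjusted p = 0.856) nor Wfdc3 (0.336) passed. None of 10 genes beside Agr2 and none of 10 beside Spink1 passed limma's test.

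**Figure D3:**
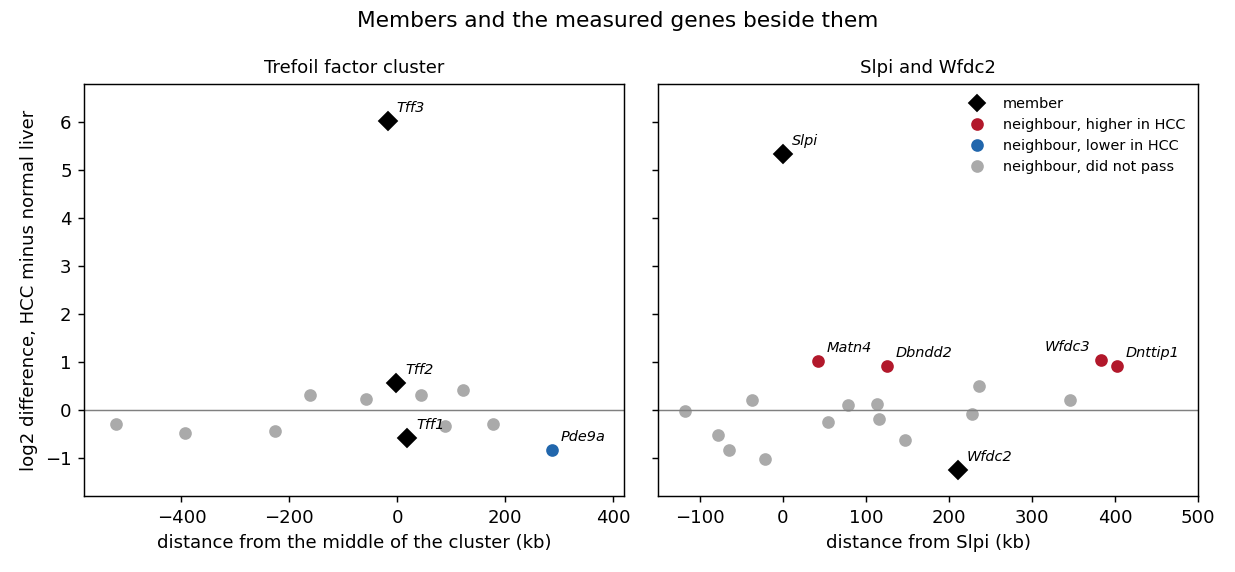
Log2 difference, HCC minus normal liver (vertical axis), of members (black diamonds) and measured neighbours (circles) against distance in kb from the middle of the trefoil cluster (left) and from Slpi (right). Tff3 at 6.02 and Slpi at 5.34 stand above neighbours that lie between -1.03 and 1.03.

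Related inhibitor genes showed no common direction. Of 13 other WAP-domain genes measured, 1 rose and 2 fell in limma's fit over all genes, where 6.48% of all genes rose and 7.24% fell. Of these 13, 4 were at an unadjusted p under 0.05, and the median log2 difference was -0.09, against -0.04 over all genes. Wfdc21 fell by 2.29 ± 0.54 (SE, adjusted p = 0.0149), with log2 levels from 10.10 to 14.40 in HCC and from 14.39 to 14.88 in normal liver, and Wfdc3 rose as given above. Of 6 other Spink genes 0 passed (limma, 0 also at an unadjusted p under 0.05), and Spink5, an inhibitor of skin proteases, had the smallest p at -0.65 ± 0.40 (SE, adjusted p = 0.318). Of 26 other serine protease inhibitors 4 rose and 3 fell (limma, 11 at an unadjusted p under 0.05, median 0.03). The intracellular elastase inhibitor Serpinb1a fell most, by 4.24 ± 0.50 (SE, adjusted p = 0.000236), at 5.18 to 7.84 in HCC against 9.57 to 11.53 in normal liver. Serpinb6a, an intracellular serpin that inhibits cathepsin G, rose by 1.86 ± 0.51 (SE, adjusted p = 0.0309), a call lost without HCC 4, HCC 5, normal 1, normal 2, normal 4 or normal 5 (adjusted p up to 0.0675).

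Mucins and genes of secretory cells were measured next. Of 11 mucin genes 0 passed (limma, 1 at an unadjusted p under 0.05; median -0.23), and the endothelial sialomucin Emcn had the smallest p at 1.24 ± 0.42 (SE, adjusted p = 0.0677). Of 22 goblet cell and gastric secretory genes 0 rose and 1 fell (limma, 3 at an unadjusted p under 0.05, median 0.02), where 6.48% of all genes rose and 7.24% fell. That gene was Pigr, the receptor that carries immunoglobulin A across epithelia, at -2.72 ± 0.76 (SE, adjusted p = 0.0316), a call that held when HCC 2, HCC 3, HCC 4 or HCC 5 was left out but with no other array left out (adjusted p up to 0.0606). Its lowest tumours were HCC 4 at 9.35 and HCC 1 at 9.77. Among 16 disulfide isomerases and partners of the endoplasmic reticulum 2 rose and 1 fell (limma, 5 at an unadjusted p under 0.05, median 0.16). Pdia6 was at 0.82 ± 0.19 (SE, adjusted p = 0.0121) and the oxidase Ero1b at -0.94 ± 0.15 (SE, adjusted p = 0.00182). With probe sets averaged, Pdia6 and Ero1b did not pass (adjusted p = 0.436 and 0.0853).

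Of 20 epithelial transcription regulators 2 rose and 1 fell (limma, 9 at an unadjusted p under 0.05, median 0.10), where 6.48% of all genes rose and 7.24% fell. Foxa3, a forkhead factor of liver and gut, rose by 1.05 ± 0.24 (SE, adjusted p = 0.0138), and Gata4 was lower, at -0.62 ± 0.16 (SE, adjusted p = 0.0244). The Gata4 call was lost without normal 5 or normal 6, under the deposited scaling, under median centring and with probe sets averaged (adjusted p from 0.0509 to 0.184). Of 8 reported receptors and partners of trefoil factors 0 passed (limma, 2 at an unadjusted p under 0.05; median 0.21). The chemokine receptor Cxcr4 came closest at 2.01 ± 0.64 (SE, adjusted p = 0.0551), with its highest levels in HCC 6 at 10.28 and HCC 4 at 9.24.

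Slpi and Spink1 act on serine proteases. Of 14 serine proteases and companions from leukocyte granules 1 rose and 0 fell (limma, 5 at an unadjusted p under 0.05; median 0.48, against -0.04 over all genes), where 6.48% of all genes rose and 7.24% fell. The one that rose was proteinase 3 (Prtn3), by 2.98 ± 0.59 (SE, adjusted p = 0.00628). Of 19 trypsin-like and pancreatic proteases 1 rose and 1 fell (limma, 4 at an unadjusted p under 0.05, median -0.03). Tissue plasminogen activator (Plat) rose by 4.55 ± 1.04 (SE, adjusted p = 0.0129), with levels of 14.18 for HCC 1, 13.14 for HCC 4 and 13.36 for HCC 6. The other tumours, HCC 2, HCC 3 and HCC 5, had 7.82, 8.58 and 9.22, and normal liver had 6.50 ± 0.47 (SD, n = 6). Plat was thus highest in the 3 tumours lowest in Tff3, and with the mean of its probe sets it did not pass (adjusted p = 0.0757). Tmprss6, a hepatocyte membrane protease, was at -0.57 ± 0.15 (SE, adjusted p = 0.0223).

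**Figure D4:**
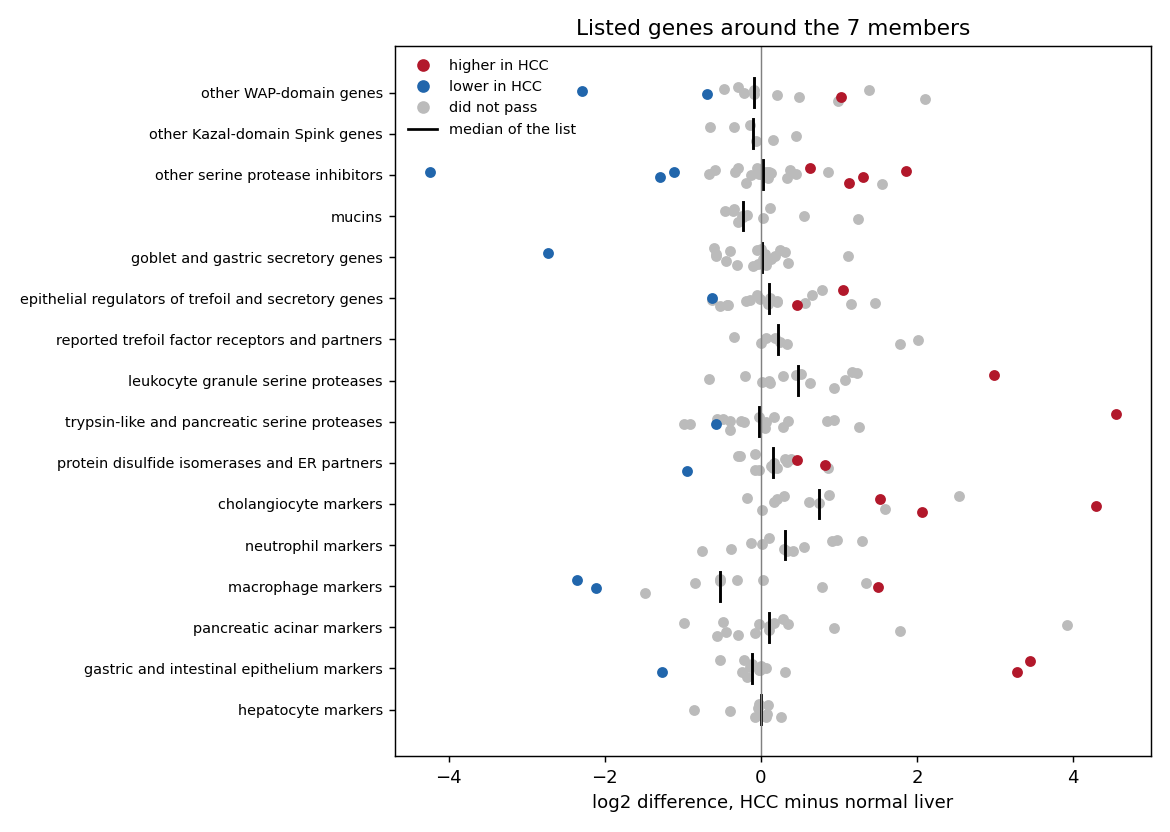
Log2 difference, HCC minus normal liver (horizontal axis), of every measured gene in the 16 lists (rows), coloured by limma's call over all genes, with the median of each list as a black line. List medians lie between -0.52 and 0.74, and no listed gene reaches the 5.06 of Spink1.

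Markers of cells known to make these proteins were measured in the same arrays. Of 10 hepatocyte markers 0 passed (limma, 2 at an unadjusted p under 0.05). The asialoglycoprotein receptor gene Asgr1 had the smallest p at -0.40 ± 0.14 (SE, adjusted p = 0.0834), and it passed as lower under the deposited scaling (adjusted p = 0.0304) and median centring (adjusted p = 0.0292). Albumin (Alb) was at 15.39 to 15.60 in HCC and 15.29 to 15.57 in normal liver. Of 13 cholangiocyte markers 3 rose and 0 fell (limma, 4 at an unadjusted p under 0.05), where 6.48% of all genes rose and 7.24% fell. Their median was 0.74, against -0.04 over all genes. Those that rose were Prom1 by 4.29 ± 0.65 (SE, adjusted p = 0.00129), Cd24a by 2.06 ± 0.49 (SE, adjusted p = 0.0158) and Bicc1 by 1.53 ± 0.47 (SE, adjusted p = 0.0485). The Bicc1 call held when HCC 1, HCC 3 or HCC 4 was left out but with no other array left out (adjusted p up to 0.0991), and was lost with probe sets averaged (0.0657) and an added constant of 1 (0.0572). The defining bile duct keratin Krt19 was at 0.01 (adjusted p = 0.992) and Epcam at -0.18 (adjusted p = 0.799). Krt19 went both ways among tumours, at 7.68 for HCC 3, 7.82 for HCC 5 and 7.84 for HCC 6, above every normal liver (6.76 to 7.09), and at 5.0 for HCC 4, 6.53 for HCC 2 and 6.54 for HCC 1, below them. Among other markers that did not pass, Krt23 was at 2.54 (adjusted p = 0.165) and Cldn7 at 1.59 (adjusted p = 0.214). The summed intensity of the list ran from 5649.2 to 14432.9 in HCC, against 1443.4 to 2080.0 in normal liver. Prom1 alone held 8626.6 of 10260.9 in HCC 1, but 658.0 of 5649.2 in HCC 2. The sum was lowest in HCC 2, at 5649.2, and highest in HCC 5, at 14432.9, and both were tumours with high Tff3 and Spink1. Pkhd1, the gene given above as most like Tff3, is also in this list and did not pass (0.17, adjusted p = 0.88). Its log2 level was 9.99, 10.20 and 9.94 for HCC 2, HCC 3 and HCC 5. HCC 1, HCC 4 and HCC 6 had 7.11, 7.50 and 7.60, and normal livers 8.01 to 8.82. The part of these markers in the difference of Tff3 was not tested.

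Of 12 neutrophil markers 0 passed (limma, 1 at an unadjusted p under 0.05), with S100a9 at 0.97 ± 0.44 (SE, adjusted p = 0.169) and sums of 863.2 to 5392.8 in HCC and 822.3 to 1421.5 in normal liver. The highest sum was in HCC 6 and the lowest HCC sum in HCC 1, and their part in the difference of Slpi was not tested. Of 11 macrophage markers 1 rose and 2 fell in limma's fit (5 at an unadjusted p under 0.05), so the list went both ways. Over all genes 6.48% rose and 7.24% fell. Mpeg1 rose, at 1.5 ± 0.37 (SE, adjusted p = 0.0191), and had the highest HCC average of the list, at 13.02. Those that fell were the Kupffer cell genes Clec4f, at -2.36 ± 0.57, and Timd4, at -2.11 ± 0.42 (SE, adjusted p = 0.0167 and 0.00609). Sums of the list were 8534.1 to 38232.7 in HCC and 10715.3 to 20924.4 in normal liver. Of 15 pancreatic acinar markers 0 passed (limma, 2 at an unadjusted p under 0.05), with Pnliprp2 at 1.78 ± 0.58 (SE, adjusted p = 0.0602), and the defining enzymes Cpa1 and Cpb1 were under an intensity of 50 on all 12 arrays. Pnliprp1 averaged 8.77 in HCC and 4.85 in normal liver, at 3.92 ± 1.29 (SE, adjusted p = 0.0633), and the elastase Cela1 averaged 12.32 in HCC and 11.38 in normal liver (adjusted p = 0.193). The sum of the acinar list ran from 3351.6 to 21069.3 in HCC, against 1754.7 to 5989.5 in normal liver, and was highest in HCC 1 and HCC 4, the tumours lowest in Spink1. Cela1 and Pnliprp1 had the highest HCC averages of the list, with Cela3b next at 7.16, so the sum rests mainly on few genes. Its part in the difference of Spink1 was not tested.

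Of 15 genes listed as markers of gastric and intestinal epithelium 2 rose and 1 fell (limma, 3 at an unadjusted p under 0.05, median -0.12). Over all genes 6.48% rose and 7.24% fell. The 15 included Pmel, a pigment cell gene, which the listed name Si, meant for sucrase-isomaltase, matched as a synonym. Pmel did not pass (limma, -0.21, adjusted p = 0.517) but counts in the median and in the sum below. The gene that fell was Cblif, at -1.27 ± 0.39 (SE, adjusted p = 0.0467). Villin (Vil1), of the microvillus core, rose by 3.44 ± 0.71 (SE, adjusted p = 0.0078), and liver-intestine cadherin (Cdh17) by 3.28 ± 0.83 (SE, adjusted p = 0.0207). Both were lowest among tumours in HCC 2, at 5.37 and 4.44, where Tff3 was at 14.67. They were highest in HCC 6, at 11.08 and 10.60, where Tff3 was at 13.55. The part of these markers in the difference of Tff3 was not tested. The intestinal regulator Cdx1 was under 16 on all 12 arrays. The sum of this list overlapped between the groups, at 3289.6 to 21271.3 in HCC and 6688.2 to 12267.7 in normal liver. Fabp2 had the highest average of the list in both groups, at 12.46 in HCC and 12.99 in normal liver (adjusted p = 0.439). The sum therefore says little about the other markers.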

How the data were processed

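The intensity values, as deposited, were linear single-colour signals for 45101 probe sets, which the authors had scaled to a 2% trimmed mean of 500 on every array (as their values show); how probes were summarised into probe sets was not given in the sources used here. Per the labels, 1 microgram of total RNA per array was labelled by one-cycle cDNA synthesis. Medians differed between arrays (92.4 to 114.3), so log2(intensity + 16) was quantile normalized. Tests left aside 64 control probe sets. Of the rest, 34945 named 1 gene, and the brightest stood for each of 18193 genes, named through GRCm38.p6 gene IDs.

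Groups were compared with limma 3.58.1 (lmFit and eBayes, in R 4.3.3) by a two-sided test, Benjamini-Hochberg adjusted over all genes, at a threshold of 0.05. The 16 lists held 247 genes, of which 213 were measured, counting Pmel in place of sucrase-isomaltase. Named from each list were up to 2 genes past the test with the largest difference, or else the gene with the smallest p; further ones were chosen after their values were seen. Members and lists were chosen with earlier results of these data known. Same-numbered arrays had correlations of deviations from -0.0147 to 0.0778 and were not taken as pairs. No detection calls were used. RefSeq promoters matched 3 of the 7 members. Python 3.11.15, numpy 2.4.6, pandas 2.3.3 and matplotlib 3.10.9 made tables and figures. The test was checked on simulated data.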

Additional observations from a re-analysis of the deposited data

Results flagged for a closer look

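Of 82 groups of 6 arrays examined for a single array far from the others (members and other genes whose calls are given), 3 stood out, where chance alone gives about 1 in 20, and none was a member. Dbndd2, beside Wfdc2, had HCC 5 at a log2 level of 9.47, with the next at 9.84. Cxcr4 had normal 5 at 4.37, with the next at 5.81. The pancreatic lipase-related gene Pnliprp2 had normal 1 at 6.20, with the next at 4.72.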

How the results depend on the processing

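Tff3, Slpi, Spink1, Wfdc2 and Tff1 kept the sign of their difference under the deposited scaling, median centring, other pseudocounts, the mean of probe sets, array weights, the replicate block and each array left out in turn. Leaving out single arrays gave 5.46 to 6.45 for Tff3, 5.07 to 5.70 for Slpi, 4.44 to 5.63 for Spink1, -1.52 to -0.87 for Wfdc2, -0.70 to -0.49 for Tff1, 0.27 to 0.86 for Tff2 and -0.40 to 0.01 for Agr2, whose sign turned without normal 6. Between arrays without Y-linked signal the differences were 3.96 for Slpi, 3.09 for Spink1, -2.86 for Wfdc2 and 1.79 for Tff2; between arrays with it Tff2 was at -0.07. These sets hold fewer arrays. Over all genes 1179 rose and 1318 fell; single arrays left out gave 895 to 1222 and 919 to 1443, arrays with Y-linked signal 575 and 563, those without it 40 and 37, and a threshold of 0.01 gave 515 and 461. With the replicate block, 862 rose and 839 fell, and the members' differences stayed as they were because the groups are balanced. Of the listed genes 17 rose and 12 fell, with 12 to 21 and 8 to 15 when single arrays were left out, 4 lower with Y-linked signal, 3 and 1 without it, and 5 and 3 at a threshold of 0.01. Among the 21 genes named by rule from lists and neighbours that passed, the call held in 15 whichever array was left out, in 17 with the replicate block (not Gata4, Pde9a, Tmprss6 or Wfdc3; of genes named beyond the rule, Bicc1 and Galnt18 were lost too, at 0.0574 and 0.0516), in 15 with the mean of probe sets, and in 7 and 3 for arrays with and without Y-linked signal. Cxcr4, Emcn, Pnliprp2 and Asgr1, which missed the threshold, passed under some settings, with adjusted p as low as 0.0206 (without HCC 3), 0.0176 (without HCC 1), 0.0156 (replicate block) and 0.0292 (median centring). Alternatives for correlations among members were not run, since none was computed. Signals near the floor limit Tff2, Agr2 and Spink1 in normal liver, and also the neighbour Matn4.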

Other observations

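A pair of genes of epithelial glycoproteins and brush borders stood close to the members among the 20 largest rises; both were chosen after their values were seen. Galnt6, which starts the O-linked glycan chains of mucin-type proteins, had intensities of 276.0, 1151.8 and 2461.0 (lowest, median and highest) in HCC, against 8.31, 14.9 and 48.4 in normal liver, a log2 difference of 4.84 ± 0.48 (SE, limma adjusted p = 7.93e-05). The groups did not overlap. Of the 18 Galnt genes measured, 2 rose and 0 fell in limma's fit, where 6.48% of all genes rose and 7.24% fell. The other that rose was Galnt18 at 1.53 ± 0.44 (SE, adjusted p = 0.0345). Its call held when HCC 2, HCC 3 or HCC 5 was left out but with no other array left out (adjusted p up to 0.0698). The metalloprotease subunit Mep1b, known from the brush border of kidney and gut, lay at 268.0, 549.0 and 1731.8 in HCC, against 7.42, 12.2 and 14.8 in normal liver, a difference of 4.53 ± 0.44 (SE, adjusted p = 6.81e-05).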
